A study of Mus musculus with 6 samples.

Results

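The genes described here code for the protein core of the small nucleolar ribonucleoproteins (snoRNPs) and for abundant nucleolar chaperones, and their transcripts were followed in αTC1 cells, a mouse glucagonoma line. They were chosen by name: Fbl, Nop56, Nop58 and Snu13 for box C/D snoRNPs, Dkc1, Nhp2, Nop10 and Gar1 for box H/ACA snoRNPs, and Ncl and Npm1 for the chaperones. These are 10 of the 55487 genes in the count table, and all 10 passed the filter on low counts. The series holds 6 RNA sequencing libraries of 1 cell line, 3 from cells treated with G786-1089, named in the series text as an inhibitor of the splicing factor SMNDC1, and 3 from cells given the solvent DMSO. Dose and duration are not given in the labels. All libraries came from small amounts of RNA by the Smart-seq2 protocol, which copies polyadenylated RNA and keeps no strand. The libraries are called A, B and C after the letters of their columns, whose names all begin with WT, for wild type. For its cell culture work the study states that each replicate was split from 1 batch of cells among the treatments and processed together, but nothing says which letter is which replicate or whether replicates are separate cultures. P-values measure the spread between these libraries, which may be technical.

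A snoRNP pairs a small nucleolar RNA (snoRNA) with 4 core proteins and guides a chemical change of ribosomal or spliceosomal RNA. Box C/D snoRNPs add a methyl group to the ribose, with fibrillarin (Fbl) as the enzyme, and box H/ACA snoRNPs turn uridine into pseudouridine, with dyskerin (Dkc1) as the enzyme. Snu13 also binds the U4 RNA of the spliceosome, the box H/ACA proteins are also part of telomerase, and fibrillarin, nucleolin (Ncl) and Gar1 carry glycine- and arginine-rich stretches. In mammals most snoRNAs are cut from introns, several of them from introns of the genes for these same proteins.

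The count totals ran from 59070705 to 94747943, and each G786-1089 library was deeper than each DMSO library. Counts were divided by library totals scaled with TMM factors and are given as CPM, and 15082 genes were tested. The summed CPM of 8 α cell markers was 24440 to 27290 with DMSO and 5103 to 5895 with G786-1089, most of it Gcg. Of 18 markers of other cell types 8 were at 0 in every library, and their summed CPM was 29.5 to 44.6 with DMSO and 42.6 to 69.7 with G786-1089. Smndc1, whose protein rather than transcript is the target, was at 3.80 ± 2.43 CPM with G786-1089 and 2.12 ± 0.575 with DMSO (SD, n = 3, edgeR adjusted p = 0.481). The part of depth or of the marker genes in the results that follow was not tested, and in bulk samples fewer cells of a type and less RNA per cell cannot be told apart.

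Of the 10 genes, 6 were called in edgeR's quasi-likelihood test (adjusted p under 0.05), against 14.8% of all tested genes. With the column letter as a replicate block, 1 of them, Nhp2, was called (edgeR adjusted p = 0.0325). Without the block, Nop56, Nop58 and Npm1 were higher with G786-1089, against 6.98% of tested genes called higher. Snu13, Nhp2 and Nop10 were lower, against 7.8% called lower. Most of these genes are highly expressed, and 34.3% were called among the tested genes whose log2 CPM averaged 5 or more, a class that holds all of the 10 but Gar1. The study's methods narrowed its splicing events to genes by expression, on values from DESeq2. That filter was an adjusted p up to 0.1 together with a change of 1 or more on the log2 scale in either direction. On the edgeR values no gene of the 10 passed it, and 10.4% of tested genes did. The same 6 genes were those whose CPM did not overlap between the treatments, and this held for 36.7% of tested genes. The median log2 fold change of the 10 genes was -0.21, beside 0.04 over all tested genes, and 4 were above 0. The value of 0.04 is not matched for expression. Among protein-coding genes whose log2 CPM averaged 5 or more, the median was -0.27, -0.12 or 0.08, depending on exon number as given below.

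**Figure D1:**
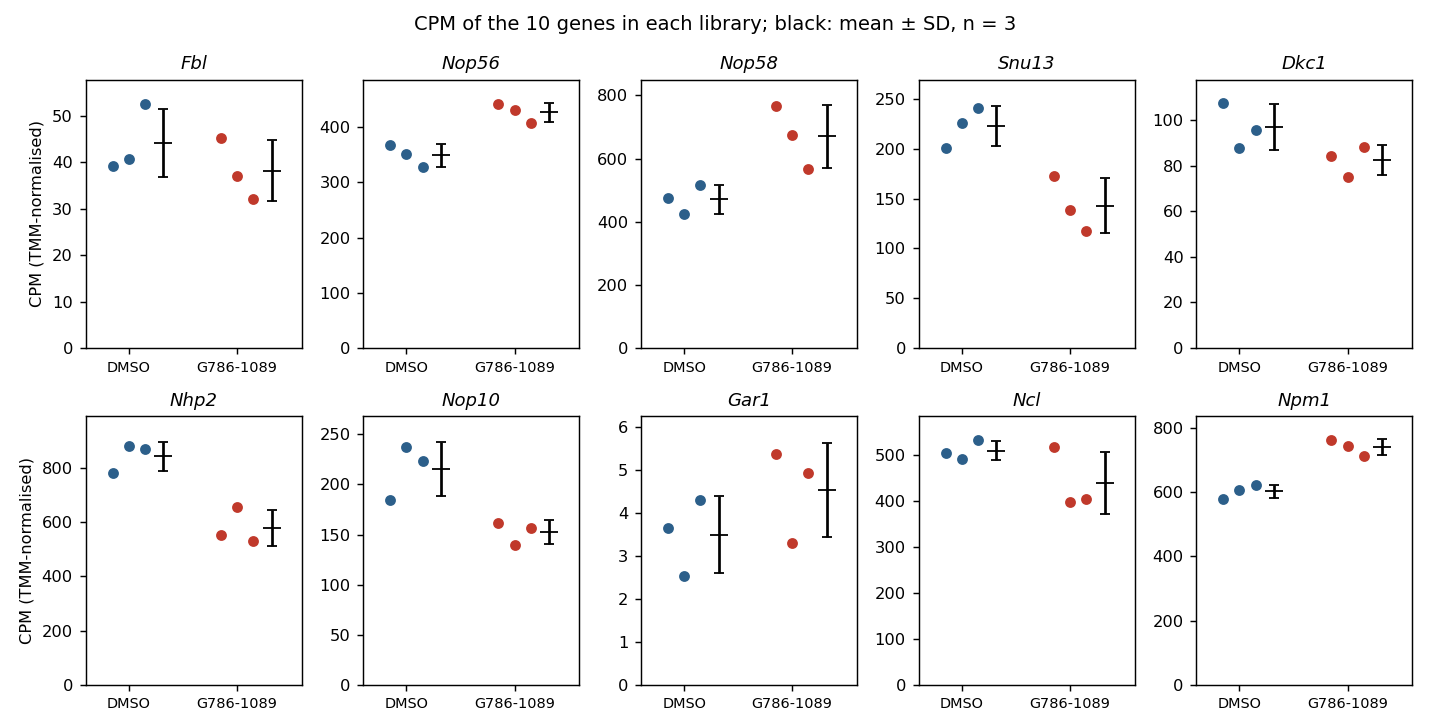
TMM-normalised CPM of each of the 10 genes (vertical axis from 0, its scale set per gene) in the 3 DMSO libraries (blue) and the 3 G786-1089 libraries (red), with the mean and SD in black. The treatments do not overlap for Nop56, Nop58 and Npm1, where the red points are higher, nor for Snu13, Nhp2 and Nop10, where they are lower.

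Within box C/D the proteins did not move together. Nop56 and Nop58 are the paired scaffold proteins that hold the particle together. Nop56 was at 442, 431 and 408 CPM in G786-1089 libraries A, B and C and at 368, 351 and 327 in DMSO libraries A, B and C. Its log2 fold change was 0.29 (SE 0.08, edgeR adjusted p = 0.0468), and the lowest treated library was above the highest DMSO library. Nop58 was at 768, 674 and 569 CPM with G786-1089 and at 475, 424 and 516 with DMSO. It rose by 0.51 on the log2 scale (SE 0.13, edgeR adjusted p = 0.0417), the largest increase among the 10, with treated library A highest and no overlap.

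Snu13 is the small protein that binds the kink-turn of box C/D RNA first, before the scaffold proteins join. It was at 173, 139 and 117 CPM with G786-1089 and at 201, 226 and 241 with DMSO. It fell by 0.64 on the log2 scale (SE 0.16, edgeR adjusted p = 0.0394), the largest change of any of the 10, and every treated library was below every DMSO library. Fbl, the methyltransferase, was at 45.2, 37.1 and 32.1 CPM with G786-1089 and at 39.2, 40.65 and 52.4 with DMSO. Its groups overlapped, treated library A lying above DMSO libraries A and B, and its log2 fold change of -0.21 was about the size of its error (SE 0.20, edgeR adjusted p = 0.565).

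In box H/ACA, Nhp2 and Nop10 fell. Nhp2 is a relative of Snu13 and binds the RNA beside Nop10, which holds Nhp2 to the enzyme. Nhp2 was at 552, 654 and 530.4 CPM with G786-1089 and at 781, 878 and 869 with DMSO. Its decrease of 0.54 on the log2 scale (SE 0.10) had the smallest adjusted p of the 10 (edgeR adjusted p = 0.0138), and treated library B, the highest of its group, was still below each DMSO library. Nop10 was at 162, 139 and 156 CPM with G786-1089 and at 185, 238 and 224 with DMSO. It fell by 0.50 on the log2 scale (SE 0.12, edgeR adjusted p = 0.0395) without overlap.

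Dkc1, the pseudouridine synthase, was at 84.0, 75.1 and 88.1 CPM with G786-1089 and at 107, 87.7 and 95.7 with DMSO. The groups overlapped, since treated library C lay just above DMSO library B, and the log2 fold change was -0.23 (SE 0.13, edgeR adjusted p = 0.294). Gar1, the fourth core protein and the one that joins the mature particle last, was at 5.36, 3.285 and 4.92 CPM with G786-1089 and at 3.65, 2.52 and 4.29 with DMSO. It was the only 1 of the 10 below 10 CPM, its groups overlapped and its log2 fold change was 0.375 with an error larger than that (SE 0.43, edgeR adjusted p = 0.644). No change was detectable for Gar1 with this spread.

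Of the chaperones Npm1 was called and Ncl was not. Npm1, nucleophosmin, binds histones and ribosomal proteins and makes up much of the granular part of the nucleolus. It was at 763, 745 and 713 CPM with G786-1089 and at 580.3, 607 and 622 with DMSO. It rose by 0.295 on the log2 scale (SE 0.06, edgeR adjusted p = 0.0213), with no overlap and the smallest error of the 10. Ncl, nucleolin, binds nascent ribosomal RNA. It was at 516, 396 and 403 CPM with G786-1089 and at 504, 491 and 531.5 with DMSO. Treated libraries B and C were below all DMSO libraries while treated library A was among them, and the log2 fold change was -0.215 (SE 0.115, edgeR adjusted p = 0.283).

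**Figure D2:**
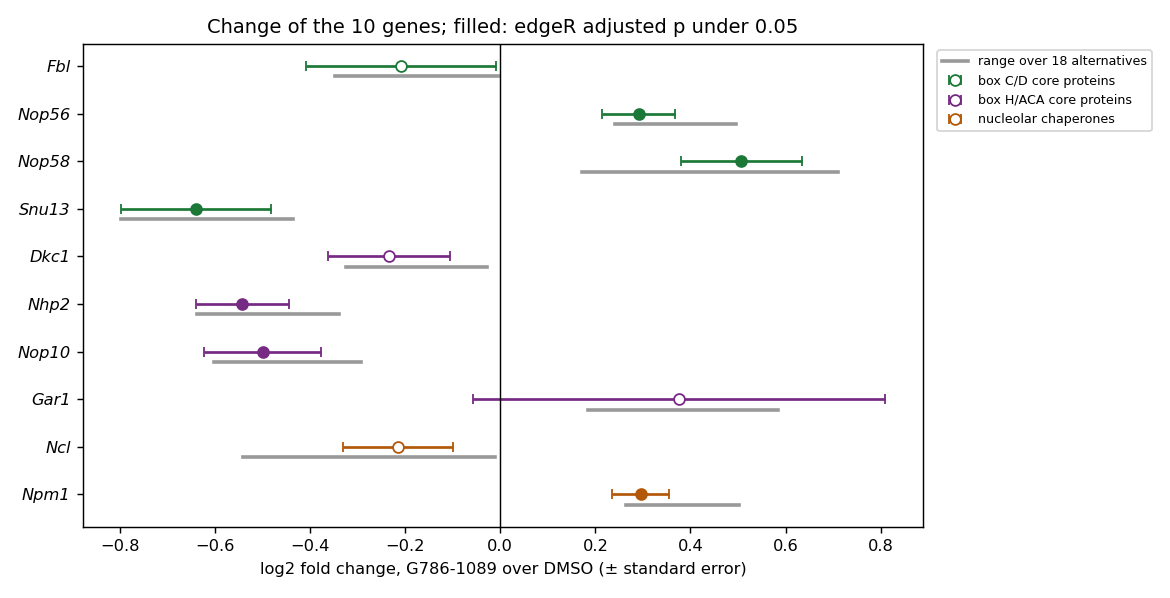
Log2 fold change of G786-1089 over DMSO for the 10 genes (horizontal axis), with the standard error as bars, colour by complex, and filled points for an edgeR adjusted p under 0.05. The grey bar under each point is the range over 18 alternative analyses, and none of the 10 ranges crosses 0.

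No gene of the 10 changed sign in any of 18 alternative analyses, but for 3 of the genes not called the range ended next to 0, at -0.004 for Fbl, -0.01 for Ncl and -0.03 for Dkc1, each with scaling by library size alone. For the 6 called genes the log2 fold changes stayed within 0.24 to 0.495 for Nop56, 0.17 to 0.71 for Nop58, 0.26 to 0.50 for Npm1, -0.80 to -0.435 for Snu13, -0.64 to -0.34 for Nhp2 and -0.60 to -0.29 for Nop10. Nhp2 had an adjusted p under 0.05 in 13 of the 18, Npm1 in 11, Nop58 and Snu13 in 8, and Nop56 and Nop10 in 7. Leaving out DMSO library B or DMSO library C left 0 of the 10 called, and leaving out G786-1089 library B left 1, DMSO library A 2 (Nhp2 and Nop10), G786-1089 library A 2 (Snu13 and Ncl) and G786-1089 library C 3 (Nop58, Nhp2 and Npm1). With offsets for gene length, Nop58 was at 0.175 (edgeR adjusted p = 0.414), Nhp2 at -0.37 (adjusted p = 0.0737) and Nop10 at -0.34 (adjusted p = 0.126), and Ncl was called at -0.53 (adjusted p = 0.0212).

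Scaling by library size alone moved the median log2 fold change of all tested genes from 0.04 to 0.25 and the share of calls that were higher from 47.2% to 67.2%. The order of the 10 genes was kept at its ends, with Nop58 at 0.71 and Snu13 at -0.435, values not corrected for that shifted median. In that scaling 4 of the 10 were called, Nop56, Nop58 and Npm1 higher and Nhp2 lower.

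Ratios of counts within a library do not depend on the scaling between libraries, and 9 pairs of partners were compared, the pairs being chosen after the values had been seen. Between genes of different length such a ratio is no ratio of amounts, so only its difference between treatments is read. With 3 libraries against 3, an exact permutation test (two-sided) cannot go below p = 0.1, so none of these comparisons could pass 0.05. The ratio of Nop58 to Snu13 was 4.44, 4.85 and 4.85 with G786-1089 and 2.36, 1.88 and 2.14 with DMSO, a log2 difference of 1.15 (exact permutation p = 0.1, adjusted over the 9 pairs 0.225). The lowest treated ratio was well above the highest DMSO ratio. The ratio of Nop56 to Snu13 was 2.56, 3.10 and 3.48 with G786-1089 and 1.83, 1.55 and 1.36 with DMSO, a log2 difference of 0.95 with the same exact permutation p of 0.1. These pairs join genes called higher to one called lower, so their ratios restate those calls in other units, and Nop58 was not called with offsets for gene length.

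Nop56 to Fbl was at 11.4 ± 1.48 with G786-1089 and 8.09 ± 1.65 with DMSO (SD, n = 3), and Npm1 to Ncl at 1.71 ± 0.208 and 1.19 ± 0.045. Neither of these overlapped between treatments. Pairs of genes called in the same direction were also computed. Nop10 to Nhp2 was at 0.267 ± 0.0469 with G786-1089 and 0.255 ± 0.0171 with DMSO, and Snu13 to Nhp2 at 0.249 ± 0.0556 and 0.264 ± 0.0117. Both ratios overlapped between treatments, as did those of Nop56 to Nop58, Dkc1 to Nhp2 and Dkc1 to Nop10.

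**Figure D3:**
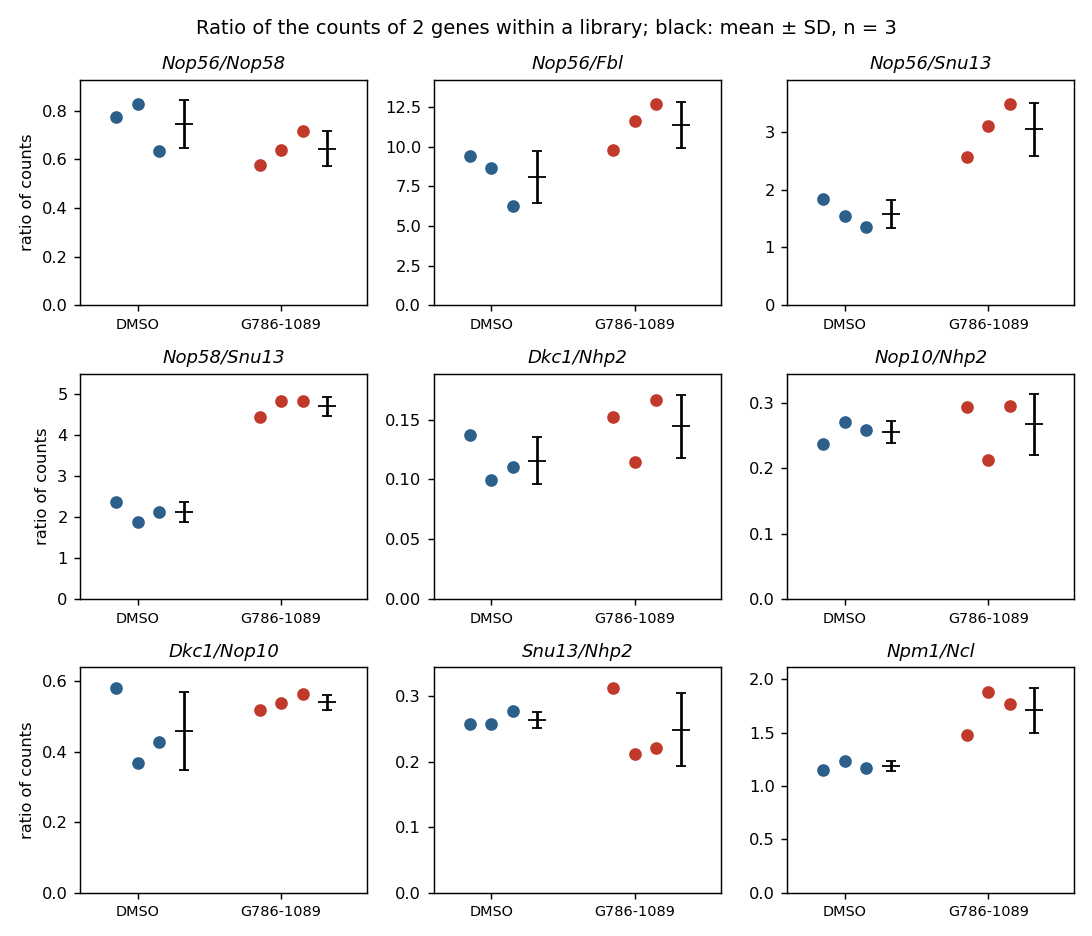
Ratio of the counts of 2 of the genes within each library (vertical axis from 0, no unit) for 9 pairs, DMSO in blue and G786-1089 in red, with the mean and SD in black. The treatments separate for Nop56/Fbl, Nop56/Snu13, Nop58/Snu13 and Npm1/Ncl and overlap for the other 5 pairs.

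The order of levels was read from FPKM, which is scaled for length. In DMSO the mean FPKM ran from Nhp2 (743 ± 47.4, SD, n = 3) through Npm1 (273 ± 9.86), Nop10 (178.5 ± 22.6), Nop56 (168 ± 9.71), Snu13 (98.6 ± 9.07), Ncl (57.0 ± 2.46), Nop58 (45.4 ± 4.53), Fbl (33.8 ± 5.63) and Dkc1 (31.8 ± 3.26) to Gar1 (2.52 ± 0.651). Neighbours in this order did not overlap in DMSO, except Nop10 with Nop56 and Fbl with Dkc1. The enzymes of both particles thus had lower FPKM than their partners other than Gar1. The length behind these values includes a last exon of 7774 of 9539 bases in Nop58 and of 5978 of 8202 bases in Ncl, and FPKM of both genes depends on these annotated ends. For Fbl, rows that share sequence with it, described below, had counts equal to 31.9% of its own. Whether reads of Fbl were lost to those rows was not tested. With G786-1089, Nop58 (64.4 ± 9.56) and Snu13 (63.1 ± 12.2) had like FPKM, where Snu13 had been the higher in DMSO.

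The genes called higher have many exons and those called lower have few, a property looked at after the calls were known. Nop56 has 12 exons in the basic annotation, Nop58 has 15 and Npm1 has 13, while Snu13 has 3, Nhp2 has 4 and Nop10 has 2. Among protein-coding genes whose log2 CPM averaged 5 or more, the median log2 fold change was -0.27 for the 659 genes with 2 to 4 exons, of which 72 were called higher and 215 lower. The 2075 genes with 5 to 11 exons had a median of -0.12, with 262 higher and 453 lower, and the 1476 genes with 12 or more had a median of 0.08, with 240 higher and 169 lower. Dkc1 with 15 exons and Ncl with 14 were at -0.23 and -0.215, so exon number did not order all of the 10. The part of exon number in the calls was not tested.

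Introns of 4 of the genes hold 13 annotated snoRNA genes with rows of their own in the count table, 5 in Nop56, 4 in Nop58, 1 in Dkc1 and 3 in Ncl. None overlaps an exon of its host. Of these 6 had enough counts to be tested, all in Nop56 or Nop58. By their box letters 5 are box C/D RNAs, the class that binds the proteins of both hosts, and 1 is a box H/ACA RNA. Their sequences, with Snord70 added because it resembles its neighbour Gm26293, are given 5′ to 3′ on the transcribed strand from GENCODE transcripts (GRCm38, all on the plus strand). Capitals mark the core of box C (TGATG) and box D (CTGA) in C/D RNAs and the ACA box in the H/ACA RNA.
Gm24451, Nop56 intron 5, chr2:130276237-130276369: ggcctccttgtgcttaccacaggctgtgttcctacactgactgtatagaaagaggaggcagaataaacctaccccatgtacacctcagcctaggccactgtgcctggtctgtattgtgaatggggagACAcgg
Gm23187, Nop56 intron 8, chr2:130277195-130277280: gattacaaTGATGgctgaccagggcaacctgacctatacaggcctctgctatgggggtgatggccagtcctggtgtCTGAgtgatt
Gm23650, Nop56 intron 9, chr2:130277697-130277766: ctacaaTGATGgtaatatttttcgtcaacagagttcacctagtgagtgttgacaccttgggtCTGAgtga
Snord70, Nop58 intron 2, chr1:59691934-59692020: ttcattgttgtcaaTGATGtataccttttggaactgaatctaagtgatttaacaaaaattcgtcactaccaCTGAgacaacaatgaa
Gm26293, Nop58 intron 3, chr1:59692509-59692592: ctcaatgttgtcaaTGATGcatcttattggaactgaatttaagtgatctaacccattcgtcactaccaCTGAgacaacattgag
Gm26287, Nop58 intron 8, chr1:59704258-59704338: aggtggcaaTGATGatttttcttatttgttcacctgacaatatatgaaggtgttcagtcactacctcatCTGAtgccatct
Snord11, Nop58 intron 9, chr1:59704790-59704873: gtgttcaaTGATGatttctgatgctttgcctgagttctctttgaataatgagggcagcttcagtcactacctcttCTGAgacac

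In Nop58 the snoRNA genes come in neighbouring pairs: Snord70 and Gm26293 are 84.1% identical over their alignment and Gm26287 and Snord11 67.0%. The mature RNAs are short and carry no poly(A) tail, and reads from an unspliced host transcript that cover such a gene are counted to the same row. The count of a row therefore cannot be told apart as snoRNA or as host intron.

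None of the 6 tested snoRNA genes was called in edgeR, and 2 had an unadjusted p under 0.05, against 28.1% of all tested genes. Both lie in Nop56, and their fitted changes had opposite signs, a difference that was not tested. Gm24451, the H/ACA RNA of Nop56 intron 5, had 57, 115 and 18 counts with G786-1089 and 219, 141 and 147 with DMSO, although the treated libraries were the deeper ones. Its log2 fold change was -1.997 (SE 0.76, edgeR adjusted p = 0.139). Gm23187, the C/D RNA of intron 8, had 364, 512 and 502 counts with G786-1089 and 139, 201 and 123 with DMSO, a log2 fold change of 1.04 (SE 0.39, edgeR adjusted p = 0.137). Neither gene's CPM overlapped between treatments.

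Counts were also set against those of the host in the same library. Per 1000 counts of Nop56, Gm24451 had 1.73, 2.67 and 0.509 with G786-1089 and 9.77, 6.19 and 8.27 with DMSO, and Gm23187 had 11.01, 11.9 and 14.2 against 6.20, 8.82 and 6.92. Gm23187 was the more abundant of the pair in each treated library, whereas in DMSO library A and DMSO library C Gm24451 was. Over the 7 snoRNA genes compared this way the smallest exact permutation p was 0.1, the lowest possible (0.35 adjusted over the 7). Across alternatives, Gm24451 was called in 2 of 18 and Gm23187 in 4 of 18, and neither changed sign.

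The third of the Nop56 set, Gm23650, was at 1.89 ± 0.405 per 1000 host counts with G786-1089 and 1.67 ± 0.432 with DMSO (SD, n = 3). The 3 tested snoRNA genes in Nop58 had 10 to 130 counts in treated libraries and 0 to 39 in DMSO libraries, and all overlapped. Snord11 ranged from 0 counts in DMSO library A to 82 in G786-1089 library A, and the sign of its fold change depended on single libraries. Gm24148 and Snord82, both in Ncl, had 0 counts in all 6 libraries.

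**Figure D4:**
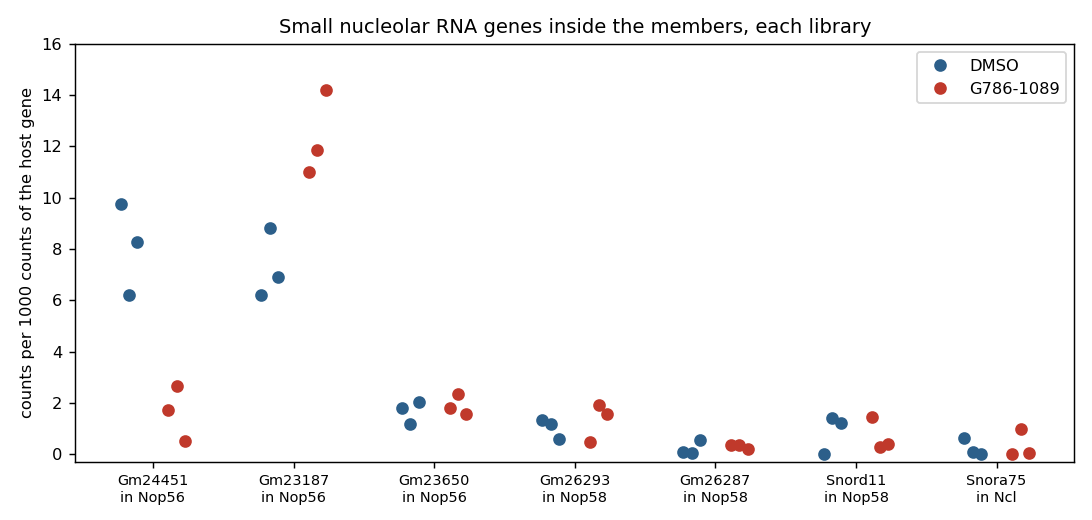
Counts of 7 snoRNA genes per 1000 counts of their host gene (vertical axis) in each DMSO library (blue) and each G786-1089 library (red). Gm24451 is lower and Gm23187 higher in all G786-1089 libraries, and the other 5 overlap between treatments.

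Processed copies of these genes elsewhere in the genome could take or lend reads. Rows whose longest match to a member's transcript, at least 100 bases at 95% identity, began before its last exon numbered 17. Such a match may run on into the last exon, as for Snu13, whose last exon holds 1844 of 2077 exon bases. The 17 rows matched Fbl, Nop56, Snu13 and Npm1, and none was called in edgeR. Of these rows 14 could be tested. Their counts came to 31.9% of those of Fbl, 8.15% of Snu13, 5.24% of Nop56 and 2.37% of Npm1, the largest share being that of Fbl. Most of the Fbl share is the whole row of Tulp4, a gene of its own, at 21.2% of the Fbl counts. The processed pseudogene Fbl-ps2 was at 10.6%. A further 138 rows match Nop58 and 3 match Dkc1 only within the last exon, and their counts were not evaluated. The Nop58 matches are short stretches inside other genes, such as 103 bases of Malat1 and 187 of Eprs, and not copies of the gene. Rows matching within the last exon of Nop56 and of Npm1 had counts equal to 1.45% and 0.28% of those of the member. Gm25432, a processed pseudogene 99.3% identical to Nop56 over 732 bases, was at 20.2 ± 2.36 CPM with G786-1089 and 13.7 ± 1.59 with DMSO (edgeR adjusted p = 0.150). Gm8741, 99.5% identical to Snu13, was at 8.88 ± 1.15 CPM with G786-1089 and 11.7 ± 0.251 with DMSO (edgeR adjusted p = 0.373). In both cases the sign of the difference was that of the parent gene. Tulp4, a coding gene that shares 690 bases with Fbl, was at 9.08 ± 1.46 and 7.70 ± 2.79 CPM and overlapped. Exons shared with a neighbouring gene made up 4.03% of the exon bases of Nhp2 (with Rmnd5b), 1.6% of Dkc1 (with Mpp1) and 0.26% of Nop56 (with Idh3b).

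The factors that build snoRNPs were mostly not called. Of 15, 2 rose, none fell and 13 did not pass, with a median log2 fold change of 0.30. This is 13.3% called, near the 14.8% over all tested genes. Of the 10 whose log2 CPM averaged 5 or more, 1 was called, against 34.3% of all such genes. Ruvbl2, an ATPase of the R2TP assembly complex, rose from 161 ± 3.25 to 249 ± 40.0 CPM (log2 fold change 0.63, SE 0.13, edgeR adjusted p = 0.0194). Its listed partners in that complex, named after their values were seen, were not called. Ruvbl1 was at -0.33, Pih1d1 at -0.51 and Rpap3 at 0.30 (edgeR adjusted p = 0.119, 0.132 and 0.283). Coil, the scaffold of Cajal bodies, rose from 15.9 ± 6.24 to 38.5 ± 3.41 CPM (1.27, SE 0.30, edgeR adjusted p = 0.0344). Tgs1, which methylates the cap of some snoRNA precursors, and Znhit6, a box C/D assembly factor, were at 1.04 and 0.61 without passing (edgeR adjusted p = 0.0693 and 0.0978).

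Box C/D RNA U3 works in the small subunit processome, the large particle that forms on the ribosomal RNA precursor. Of its 42 listed proteins 7 rose, 1 fell and 34 did not pass (19.0% called, median log2 fold change 0.38). Of the 25 with a log2 CPM of 5 or more, 8 were called, near the 34.3% of all such genes. Nop14 rose from 64.2 ± 7.59 to 141 ± 26.6 CPM (1.13, edgeR adjusted p = 0.00792), Ddx52, a helicase, by 1.10, Utp15 by 0.997 and Utp3 by 0.67 on the log2 scale. Tbl3, the only one that fell and named after its value was seen, went from 103.5 ± 16.6 to 59.1 ± 10.7 CPM (edgeR adjusted p = 0.0326).

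Of 45 assembly factors of the large subunit 10 rose, 3 fell and 32 did not pass (28.9% called, median 0.27). Of the 36 with a log2 CPM of 5 or more, 12 were called, again near 34.3%. Gnl3, nucleostemin, a nucleolar GTPase, rose from 23.4, 29.6 and 30.7 CPM with DMSO to 106, 111 and 86.3 with G786-1089 (log2 fold change 1.86, SE 0.17, edgeR adjusted p = 0.0012). Pes1 and Bop1, partners in the PeBoW complex, moved in opposite directions: Pes1 rose from 221 ± 12.04 to 303 ± 5.94 CPM (edgeR adjusted p = 0.0108) and Bop1 fell from 218.5 ± 31.7 to 123.5 ± 1.59 (edgeR adjusted p = 0.00727). Rsl1d1 rose by 0.415 on the log2 scale. The other two that fell were Rrp1 and Gnl3l, named after their values were seen. Apart from R2TP, complexes were not searched for partners of opposite direction.

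RNA polymerase I and its factors had 1 of 15 called (6.67%), Taf1a, a subunit of the promoter factor SL1, which rose by 1.38 on the log2 scale (SE 0.32, edgeR adjusted p = 0.0329), and the median was 0.33. Over all tested genes 14.8% were called. Of the 9 polymerase I genes with a log2 CPM of 5 or more, 1 was called. Of 13 tested nucleoplasmins and other nucleolar proteins 2 rose, 1 fell and 10 did not pass (23.1% called, median 0.095), and 2 of the 7 with a log2 CPM of 5 or more were called, where 34.3% of all such genes were. Npm3, a nucleoplasmin like Npm1, fell from 104 ± 4.44 to 65.3 ± 7.04 CPM (edgeR adjusted p = 0.0144), opposite in direction to Npm1, while the helicase Ddx47 and Nop53 rose by 0.87 and 0.62 on the log2 scale.

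Myc is known to drive transcription of many nucleolar protein genes. It was at 3.32, 8.81 and 3.21 CPM with G786-1089 and at 0, 0.185 and 1.55 with DMSO. The groups did not overlap, but the spread was wide and Myc was not called (log2 fold change 3.15, SE 1.59, edgeR adjusted p = 0.258). Of 10 tested genes of its network 2 rose, Mxd1 by 1.55 and Mxi1 by 0.89 on the log2 scale (edgeR adjusted p = 0.0319 and 0.0493), and both code for partners of Max known to oppose Myc. The share called over all tested genes was 14.8%. Mxd3, a partner of Max of the same kind, was at 12.3 ± 6.23 CPM with G786-1089 and 31.6 ± 9.74 with DMSO, a log2 fold change of -1.37 in the other direction that did not pass (edgeR adjusted p = 0.0959), and Mlx was at -0.49 (edgeR adjusted p = 0.207). Of the telomerase genes outside the box H/ACA core, only Wrap53, which brings the enzyme to Cajal bodies, could be tested, with 60.2 ± 19.5 CPM against 28.1 ± 13.7 and overlapping groups (edgeR adjusted p = 0.146). Tert did not pass the filter.

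**Figure D5:**
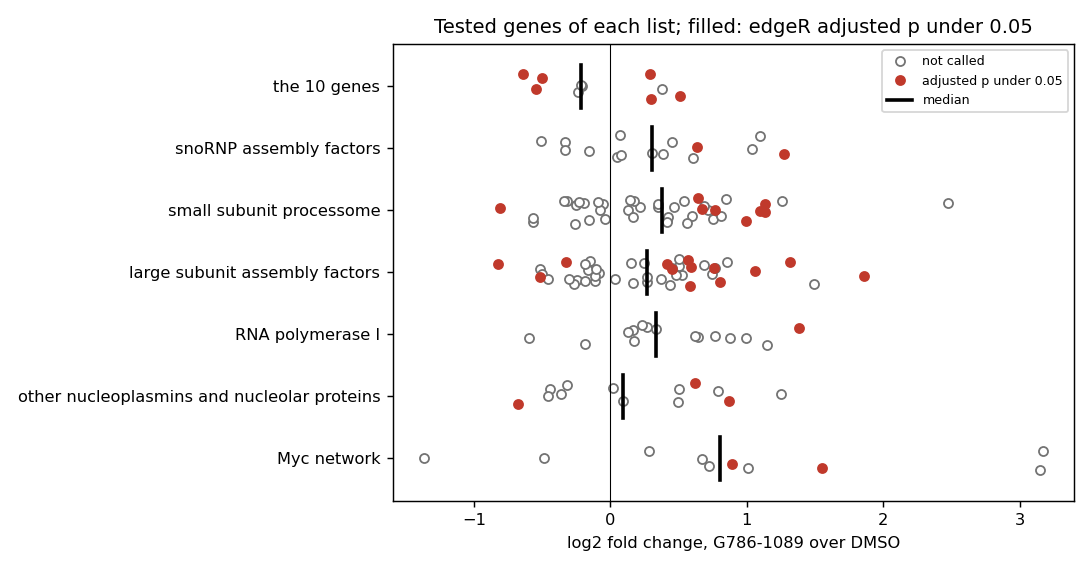
Log2 fold change of G786-1089 over DMSO (horizontal axis) for each tested gene of 7 groups, filled red where the edgeR adjusted p is under 0.05, with the median of each group as a black line. The median of the 10 genes is below 0 at -0.21 and those of the other 6 groups are above 0, at 0.095 to 0.81.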

How the data were processed

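The counts were deposited by the authors as whole numbers per gene, without normalization. Per the study's methods, reads of 100 bp pairs were aligned with STAR to GRCm38 (Ensembl basic transcripts), counted by summarizeOverlaps without regard to strand and summed per gene. The submitters' processing notes name STAR 2.7.9a, Picard 2.19.2, DESeq2 1.34.0 and R 4.1.3. The authors also deposited FPKM, whose length matched the union of basic exons within 1% for 98.6% of 15561 genes. G786-1089 was taken to be the inhibitor whose sequencing the study describes.

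The counts were tested with edgeR 4.0.16 under R 4.3.3: filterByExpr (minimum count 10, total 15), TMM, quasi-likelihood test, Benjamini-Hochberg adjustment over all tested genes. SE is the log2 fold change over the square root of F. On simulated counts with log2 fold changes of 2 for this comparison, 51.8% of 193 changed genes were recovered, and 98.4% of the 63 highly expressed ones. Smaller changes, such as those of the 10 genes, were not simulated, so the recovery at those sizes is not known. Positions, exons and sequences came from GENCODE, matched by identifier for 55141 of 55487 genes. Copies were found with blastn 2.17.0. Counting error is small at these depths except for rows with few counts.

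The members and lists were chosen with earlier results of these data known. Named are all members, per list up to 4 genes with the smallest p (and Myc), up to 3 snoRNA or copy rows with the most counts, and the 5 genes most like the mean member profile. Exon classes, partner ratios and the log2 CPM minimum of 5 were chosen after the data were seen. Alternatives were DESeq2 1.42.0, RLE or library size scaling, 2 other filters, limma 3.58.1 on log2(FPKM + 1) or log2(FPKM + 0.1), gene length offsets, thinning, a replicate block and leaving out each library. The column letters could not be matched to the labels' replicate numbers. The level of 1 marker gene is not reported here.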

Additional observations from a re-analysis of the deposited data

How the results depend on the processing

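The 10 genes kept their direction in all 18 alternatives, and none passed the study's filter in any of them. Of the 6 called, 2 were left with a filter of at least 1 count in any library, 2 with limma on log2(FPKM + 1) without a minimum, 1 with the replicate block and 0 with gene length offsets and the replicate block. Leaving out each library in turn left 0 to 3. All genes called went from 2230 to 3669 with DESeq2, 1232 with the replicate block, 995 with gene length offsets and the replicate block, and 1253 to 1556 without 1 library. The list genes called went from 29 to 56 with DESeq2, 45 with library size only, 18 with limma without a minimum, 13 with the replicate block, 10 with gene length offsets and the block, and 9 to 14 without 1 library. The tested snoRNA genes called went from 0 to 1 with DESeq2, 2 with limma on log2(FPKM + 1) or log2(FPKM + 0.1) and 1 without a minimum. The copies called went from 0 to 1 with gene length offsets and with limma on either pseudocount. Snord11 went from 0.30 to between -0.95 and 0.74 without 1 library, below 0 without DMSO library A (-0.285) or G786-1089 library A (-0.95). The cause of these shifts was not tested, except that fits without a library have fewer samples.

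Whether the letters are the study's replicates is not stated. Same-lettered deviations from the group means correlated at 0.015, 0.003 and 0.025 over 15082 genes of any expression level. Libraries of different letters were not compared in this way, so these values near 0 do not exclude a pairing. At 3 libraries a treatment, differences of the size seen here sit near the threshold.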

Other observations

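The genes whose log2 CPM followed the mean standardised profile of the 10 genes most closely, among 4444 candidates whose log2 CPM averaged 5 or more, were Cyhr1 (Pearson r 0.986 over 6 libraries), App (0.978), Tmx1 (0.963), Api5 (0.96) and Tcf25 (0.96). That profile averages genes that rose with genes that fell, and the log2 fold changes of these 5 genes lay between -0.22 and -0.03. Picking the 5 highest of 4444 values over 6 libraries favours a high r by itself. Whether these genes vary together with the 10 was not tested.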
